A study of Caenorhabditis elegans with 6 samples.

Results

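The Tc, Turmoil, Mariner and Mirage transposons of C. elegans were followed through the 22G-RNAs that lie antisense to them in lotr-1 mutants and in wild-type worms. The families were chosen by name, as the entries of the 22G-RNA count tables that are not genes and that begin with Tc, Turmoil, Mariner or Mirage in any letter case. This rule gave 16 families of 151 transposon families and 22336 loci in all, and each of the 16 had a count in at least 1 library. They are Tc1, Tc1A, TC2, Tc3, TC4, TC5, TC5A, TC5B, Tc6, Turmoil1, Turmoil2, Mariner2_CE, Mariner3_CE, Mariner4_CE, Mariner5_CE and MIRAGE1, spelled as in the tables. The tables give transposons by family name, without positions, copies or lengths, so levels are compared between groups and not between families.

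These are DNA transposons, which move by a cut-and-paste mechanism when a transposase binds the inverted repeats at their ends. Tc1, Tc3 and the Mariner families belong to the Tc1/mariner superfamily, whose members insert at TA dinucleotides. In the laboratory strain N2, Tc1 jumps in somatic cells but is silenced in the germline, and mutations in the mutator genes release Tc1, Tc3, Tc4 and Tc5. 22G-RNAs are made on a target transcript by RNA-dependent RNA polymerases, start with G, and guide worm-specific Argonautes of the WAGO class, several of which silence transposons.

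Small RNAs were sequenced from whole gravid adults collected 63 hours after plating, with 1 library for each of the lotr-1 alleles xf58 (strain RFK592), xf60 (RFK593) and xf61 (RFK594), and 3 libraries of wild-type N2. LOTR-1 is a germ granule protein with LOTUS and Tudor domains. The alleles were made in N2 by CRISPR/Cas9 and outcrossed. xf58 is an in-frame deletion that takes most of the LOTUS region, whereas xf60 and xf61 are deletions that shift the frame and end in a stop codon. The methods treat the 3 alleles as triplicates, and the labels do not say whether the wild-type libraries came from separate cultures, so p-values measure the spread between these libraries. In RNA of whole animals, fewer germ cells and fewer 22G-RNAs per cell cannot be told apart.

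Total 22G-RNA counts ranged from 3706296 to 4520488 per library. Libraries were scaled with TMM factors, which assume that most loci do not change, and the 9285 loci that passed the low-count filter of edgeR entered its quasi-likelihood test. That test assumes the same spread in both groups. The common dispersion, a measure of spread beyond counting error, was 0.125 within lotr-1 and 0.0018 within wild-type. A normalized count is a raw count brought to the mean of the TMM-scaled library sizes. A locus was called higher or lower at a Benjamini-Hochberg adjusted p under 0.1 together with a change of more than 2-fold. The TMM factors were 0.843, 0.657 and 0.706 in xf58, xf60 and xf61, against 1.36, 1.36 and 1.39 in wild-type, so they raise the lotr-1 libraries relative to the raw counts. With scaling to total counts the median locus had a log2 fold change of −0.88, against 0.01 with TMM factors. Values that change direction or call between both scalings are given both ways.

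Of the 16 families, 15 passed the count filter. In the lotr-1 mutants 10 of the 15 were called higher and 0 were called lower, where 18.8% of all tested loci were called higher and 17.6% lower. At an adjusted p under 0.1 in the edgeR test, without the fold-change cutoff, 12 were higher and 1 (TC2) was lower. Of all tested loci 29.3% and 29.5% were. The DESeq2 Wald test called 11 families higher and 0 lower, where 1773 and 1635 of 9285 loci were. With total counts 4 were called higher (Turmoil2, TC5B, Tc1A and Mariner5_CE) and 2 lower (TC2 and Turmoil1), where 8.68% of the tested loci were called higher and 44.6% lower. With TMM factors from transposon families alone, which set each family against the others, 3 were called higher (Turmoil2, TC5B and Tc1A) and 2 lower (TC2 and Turmoil1), where 7.14% and 53.7% of the tested loci were. The median log2 fold change of the 15 was 1.24, beside 0.01 over all tested loci and 1.05 over the 120 other transposon families tested. Among those others 66 were called higher and 1 lower, with total counts 23 and 8 (median 0.13), and with factors from transposon families alone 20 and 13 (median −0.08). The normalized counts of the 3 lotr-1 libraries lay above all 3 wild-type libraries at 12 of the 15 families and below them at 1, where 29.7% of all tested loci lay above and 32.2% below. On total-scaled counts they lay above at 10 and below at 2, where 12.2% of all tested loci lay above and 65.5% below.

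**Figure D1:**
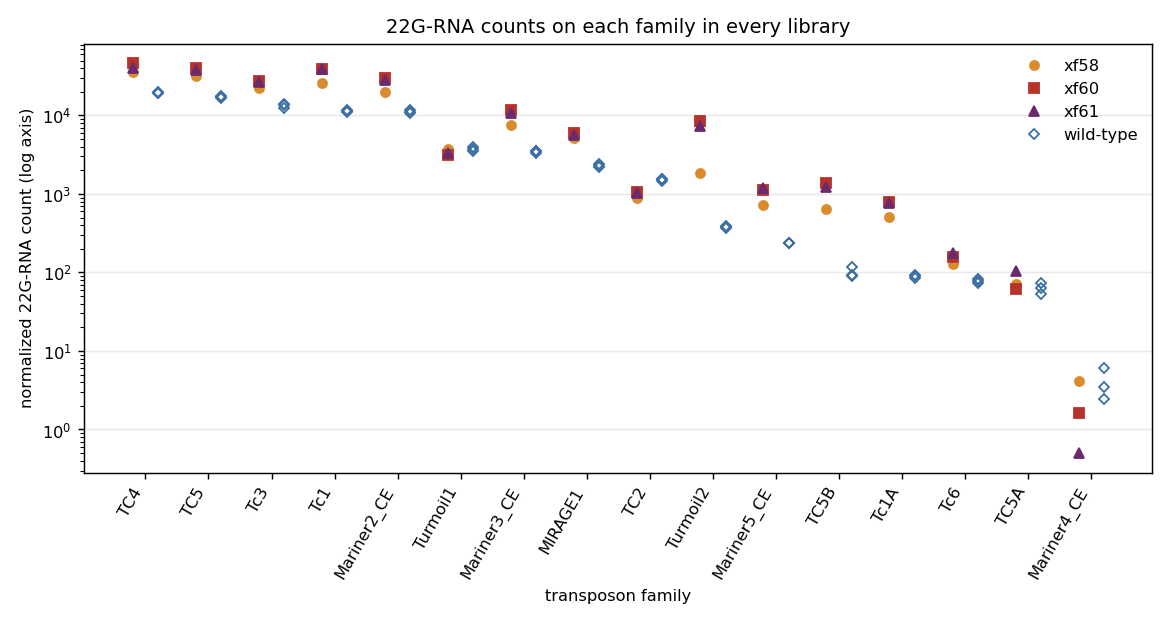
Normalized 22G-RNA counts (log axis) of the 16 families in each library, with the lotr-1 alleles as filled symbols and the 3 wild-type libraries as open diamonds to their right. At 12 of the 15 tested families all 3 alleles sit above the wild-type libraries, and TC2 sits below them. The wild-type symbols lie farthest apart at Mariner4_CE, TC5A and TC5B, and the count of 0 of Mariner4_CE in xf61 is drawn at 0.5.

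The 16 families together held 3.08%, 3.29% and 3.34% of all 22G-RNA counts in xf58, xf60 and xf61, against 2.71%, 2.68% and 2.61% in wild-type. Each lotr-1 library thus had a larger share than each wild-type library, with 3.24% ± 0.140 (SD, n = 3) in lotr-1 and 2.67% ± 0.0524 (SD, n = 3) in wild-type. The 95% Wilson interval of any of these shares was at most 0.0352 percentage points wide and covers counting error only. The other transposon families also had a larger share in each lotr-1 library than in each wild-type library. Theirs was 10.1% ± 1.33 of all counts in lotr-1 and 7.66% ± 0.224 in wild-type (SD, n = 3 each). Within the counts on all transposon families, the 16 held 26.5%, 23.5% and 23.3% in xf58, xf60 and xf61, against 25.6%, 26.0% and 25.9% in wild-type. On that scale, which does not depend on library scaling, xf58 was above and xf60 and xf61 were below every wild-type library. TC4, TC5, Tc3, Tc1 and Mariner2_CE made up 85.2% ± 1.14 of the counts on the 16 families in lotr-1 and 85.8% ± 0.139 in wild-type (SD, n = 3 each).

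Tc1, the best studied worm transposon and the one used to find the mutator genes, had 18901, 24189 and 27573 raw counts in xf58, xf60 and xf61, against 15425, 16251 and 13538 in wild-type. All 3 alleles were above wild-type, with xf58 the nearest to it. Tc1 had a log2 fold change of 1.60 (standard error 0.18, edgeR adjusted p = 4.2e-04), and with total counts it was 0.68, under the 2-fold cutoff. By mean share of the library Tc1 was the locus of rank 20 in lotr-1 and of rank 36 in wild-type among the 22336 loci. The related entry Tc1A had 368, 493 and 540 raw counts in xf58, xf60 and xf61, against 123, 128 and 104 in wild-type. Tc1A was higher in each allele than in any wild-type library under both scalings. Its log2 fold change was 2.93 (standard error 0.21, edgeR adjusted p = 5.7e-05), and 2.01 with total counts. It moved to rank 964 of all loci in lotr-1, against rank 4054 in wild-type.

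Tc3, whose transposase is a close relative of that of Tc1, did not share the size of this change. It had 16327, 17218 and 18947 raw counts in xf58, xf60 and xf61, against 18213, 19181 and 15187 in wild-type, so the raw counts overlapped. After TMM scaling, Tc3 had 25668 ± 2702 normalized counts in lotr-1 and 13299 ± 726 in wild-type (SD, n = 3 each), with all 3 alleles above wild-type. Its log2 fold change of 0.95 (standard error 0.13, edgeR adjusted p = 0.00105) was short of the 2-fold cutoff, was 0.04 with total counts, and turned to −0.17 when the TMM factors were computed on transposon families alone.

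The Mariner families carry the transposon type first known from Drosophila. Mariner2_CE had 14431, 18862 and 20071 raw counts in xf58, xf60 and xf61, against 15365, 15532 and 12848 in wild-type, and Mariner3_CE had 5476, 7212 and 7671 against 4652, 4988 and 4035. In normalized counts all 3 alleles were above wild-type at both families, xf58 by the least. In log2 terms the fold changes were 1.24 for Mariner2_CE (standard error 0.18, edgeR adjusted p = 0.00123) and 1.53 for Mariner3_CE (standard error 0.18, edgeR adjusted p = 5.2e-04). With total counts both kept their direction, at 0.32 and 0.61, but were under the 2-fold cutoff. Entries outside the rule with names close to Mariner were not called higher. MARINCE1 had 8925, 9822 and 10462 raw counts in the alleles, against 11300, 11913 and 10406 in wild-type. Its log2 fold change was 0.75 (edgeR adjusted p = 0.00345), or −0.16 with total counts and −0.38 with factors from transposon families alone. For MAR_CE the values were −0.06 (edgeR adjusted p = 0.821), −0.95 and −1.17, the last called lower.

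Mariner5_CE had 523, 707 and 828 raw counts in xf58, xf60 and xf61, against 314, 337 and 289 in wild-type. The wild-type libraries were close together, with 238 ± 1.75 normalized counts, against 1010 ± 249 in lotr-1 (SD, n = 3 each). For Mariner5_CE the log2 fold change was 2.08 (standard error 0.21, edgeR adjusted p = 2.7e-04), and it was called with total counts as well, at 1.16. Mariner4_CE was hardly targeted, with 3, 1 and 0 counts in xf58, xf60 and xf61 and 8, 5 and 3 in wild-type. With at most 8 counts in a library, no fold change is given for Mariner4_CE, the family that did not pass the count filter.

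TC2 went the other way. It had 638, 659 and 725 raw counts in xf58, xf60 and xf61, against 2003, 2208 and 1779 in wild-type. Every lotr-1 library was below every wild-type library on the raw, total-scaled and TMM-scaled counts. After TMM scaling TC2 had 988 ± 93.0 normalized counts in lotr-1 and 1515 ± 45.0 in wild-type (SD, n = 3 each). The log2 fold change was −0.62 (standard error 0.14, edgeR adjusted p = 0.00846), which is under the 2-fold cutoff, and it was −1.52 with total counts (edgeR adjusted p = 1.2e-04), which is past it. Among the 135 transposon families tested, ordered from the highest log2 fold change, TC2 had rank 131. TC2 accounted for 0.517% ± 0.0379 of the counts on the 16 families in lotr-1 and for 1.80% ± 0.0255 in wild-type (SD, n = 3 each). Other entries with TC2 in their names did not share this pattern. CELETC2, with 500, 394 and 554 raw counts in xf58, xf60 and xf61 and 491, 506 and 394 in wild-type, had a log2 fold change of 1.00 (edgeR adjusted p = 0.00153), or 0.11 with total counts and −0.11 with factors from transposon families alone. NTC2A had 25, 33 and 63 raw counts against 38, 35 and 27, a log2 fold change of 1.21 (edgeR adjusted p = 0.0230), or 0.30 with total counts. Reads with several best locations were placed at 1 of them at random, so families with shared sequence can exchange counts.

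Tc4 and Tc5 form a group of their own, with a target site that differs from the TA of Tc1. TC4 had the most counts of the 16 families, with 25844, 28628 and 28145 raw counts in xf58, xf60 and xf61, against 25407, 28030 and 23325 in wild-type. TC5 had 23102, 25289 and 27121 raw counts in the alleles, against 22476, 25059 and 20002 in wild-type. The raw counts of both families overlapped between the groups, and the normalized counts did not. TC4 had a log2 fold change of 1.06 (standard error 0.13, edgeR adjusted p = 7.0e-04) and TC5 of 1.11 (standard error 0.14, edgeR adjusted p = 5.8e-04), both just past 2-fold. On total-scaled counts the values were 0.15 and 0.20, and with TMM factors from transposon families alone they were −0.06 and −0.01. Without the xf60 library TC4 was under the cutoff, at 0.95. The ratio of TC5 to TC4 was close in both groups, with 91.4 ± 4.36 counts of TC5 per 100 counts of TC4 in lotr-1 and 87.9 ± 1.89 in wild-type (SD, n = 3 each), and it overlapped between them.

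The entries named after Tc5 behaved unlike each other. TC5B had 462, 864 and 869 raw counts in xf58, xf60 and xf61, against 154, 132 and 110 in wild-type, so each allele was above each wild-type library. Its log2 fold change was 3.43 (standard error 0.32, edgeR adjusted p = 1.8e-04), or 2.49 with total counts, and it had rank 5 among the 135 transposon families. TC5A had 52, 38 and 73 raw counts in the alleles, against 97, 89 and 64 in wild-type, which overlapped. For TC5A it was 0.32 (standard error 0.24, edgeR adjusted p = 0.292), and it turned to −0.57 with total counts. Tc6 had 92, 97 and 125 raw counts in the alleles and 95, 116 and 94 in wild-type. Its log2 fold change was 0.99 (standard error 0.17, edgeR adjusted p = 0.00254), just short of the 2-fold cutoff, with 0.08 with total counts and −0.14 with factors from transposon families alone.

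Turmoil2 had the largest log2 fold change of the 15 tested families. It had 1352, 5240 and 5108 raw counts in xf58, xf60 and xf61, against 511, 520 and 457 in wild-type. Each allele was above each wild-type library, and xf60 and xf61 were far above xf58. The log2 fold change was 3.95 (standard error 0.54, edgeR adjusted p = 9.4e-04), or 2.98 with total counts, and it was called in each alternative run. Turmoil2 had rank 3 of the 135 transposon families and rank 166 of all tested loci by log2 fold change. By share of the library it was the locus of rank 234 in lotr-1 and of rank 1167 in wild-type.

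The study places a Turmoil2 copy in an intron of fbxa-192 (WBGene00010212, WBcel235 chromosome V from 17640672 to 17650527 in the Ensembl annotation), a gene of the F-box family. The counts on fbxa-192 had the same order, with 254, 879 and 879 raw counts in xf58, xf60 and xf61, against 121, 145 and 109 in wild-type. Its log2 fold change was 3.40 (standard error 0.50, edgeR adjusted p = 0.00133). The tables do not say which Turmoil2 copies the reads came from.

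Turmoil1 had 2673, 1944 and 2371 raw counts in xf58, xf60 and xf61, against 5130, 5391 and 4291 in wild-type. Its normalized counts overlapped between the groups, with 3390 ± 292 in lotr-1 and 3747 ± 198 in wild-type (SD, n = 3 each), whereas its total-scaled counts were below wild-type in each allele. The log2 fold change was −0.14 (standard error 0.13, edgeR adjusted p = 0.382), and it was −1.03 with total counts (edgeR adjusted p = 0.00185), past the 2-fold cutoff. Turmoil1 had rank 331 of all loci by share of the library in lotr-1 and rank 143 in wild-type. MIRAGE1 had 3758, 3728 and 3942 raw counts in xf58, xf60 and xf61, against 3157, 3264 and 2697 in wild-type, with each allele above each wild-type library. Its log2 fold change was 1.27 (standard error 0.13, edgeR adjusted p = 2.3e-04), or 0.37 with total counts, under the cutoff. On normalized counts the alleles differed least at MIRAGE1, with a coefficient of variation of 6.96% over xf58, xf60 and xf61. With total counts they were closer at TC5 (log2 differences from wild-type 0.21, 0.19 and 0.22) than at MIRAGE1 (0.47, 0.32 and 0.32).

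**Figure D2:**
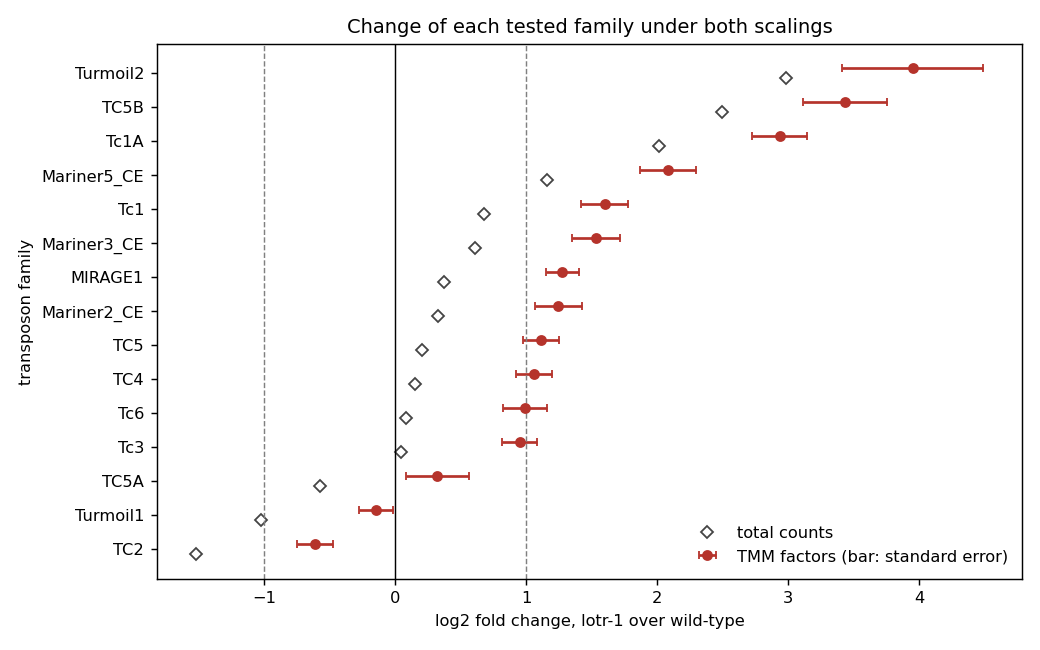
Log2 fold change of lotr-1 over wild-type for the 15 tested families, with TMM factors (filled, bars are standard errors) and with total counts (open diamonds). Dashed lines mark a 2-fold change. Turmoil2, TC5B, Tc1A and Mariner5_CE lie past 2-fold under both scalings, all families move to the left with total counts, and TC2 and Turmoil1 are negative under both.

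Ratios between families within a library do not depend on the scaling. The pairs were chosen after the counts were seen, and the ratios are descriptions. Tc1A had 1.95, 2.04 and 1.96 counts per 100 counts of Tc1 in xf58, xf60 and xf61, against 0.797, 0.788 and 0.768 in wild-type. The ratio was alike in the 3 alleles, at 2.53 times the wild-type mean. TC5B had 2.00, 3.42 and 3.20 counts per 100 counts of TC5 in the alleles, against 0.685, 0.527 and 0.550 in wild-type. Turmoil2 had 50.6, 269.5 and 215.4 counts per 100 counts of Turmoil1 in xf58, xf60 and xf61, against 9.96, 9.65 and 10.7 in wild-type. TC2 had 3.38, 2.72 and 2.63 counts per 100 counts of Tc1 in the alleles, against 13.0, 13.6 and 13.1 in wild-type. For Tc3 the numbers were 86.4, 71.2 and 68.7 per 100 counts of Tc1 in the alleles, against 118.1, 118.0 and 112.2 in wild-type. None of these 5 ratios overlapped between the groups, and the share of all pairs of families without overlap was not counted.

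**Figure D3:**
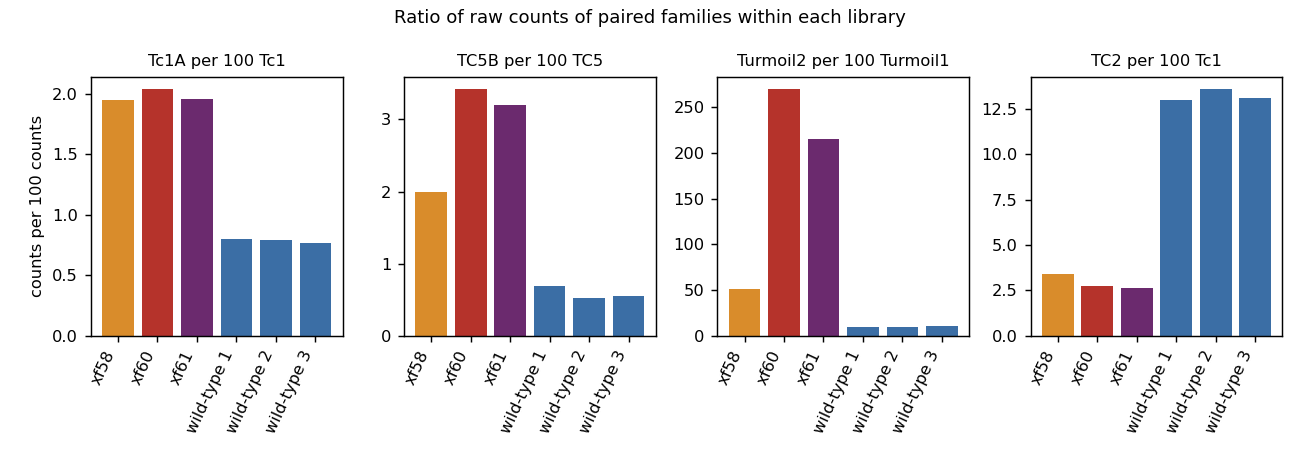
Raw counts of 4 families per 100 counts of a partner family in each library, with the 3 lotr-1 alleles left of the 3 wild-type libraries and each axis starting at 0. Tc1A, TC5B and Turmoil2 have more counts relative to their partner in every allele, and TC2 has fewer relative to Tc1.

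The alleles were also set against wild-type one by one. With TMM factors and a prior count of 2, the median log2 difference of the 15 families from the wild-type mean was 0.90 in the xf58 library, 1.37 in that of xf60 and 1.27 in that of xf61, whereas over all tested loci the medians were −0.02, −0.03 and −0.02. The families more than 2-fold above the wild-type mean numbered 7 in xf58, 11 in xf60 and 12 in xf61, where 17.3%, 19.0% and 19.4% of all tested loci were, and 7 were so in all 3 alleles, where 12.3% were. With total counts the numbers were 3 in xf58, 4 in xf60 and 4 in xf61, where 9.62%, 7.67% and 8.72% of all tested loci were, and 3 in all 3 alleles, where 5.86% were. With TMM factors xf58 was the allele nearest to the wild-type mean at 13 of the 15 families, where this held at 52.1% of all tested loci, and with total counts at 10 of the 15, where it held at 57.9%. The exceptions with total counts were MIRAGE1, TC4, TC5, Tc3 and TC5A. With TMM factors they were TC2, at −0.78 in xf58, −0.52 in xf60 and −0.56 in xf61, and TC5A, at 0.20, −0.04 and 0.71. Also with TMM factors, Turmoil2 was at 2.30 for xf58, 4.47 for xf60 and 4.25 for xf61, and TC5B at 2.66, 3.77 and 3.60. Tc1 was at 1.19, 1.76 and 1.77 and Tc1A at 2.48, 3.11 and 3.06. With 1 library per allele no difference between alleles was tested, and allele and worm population cannot be told apart.

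**Figure D4:**
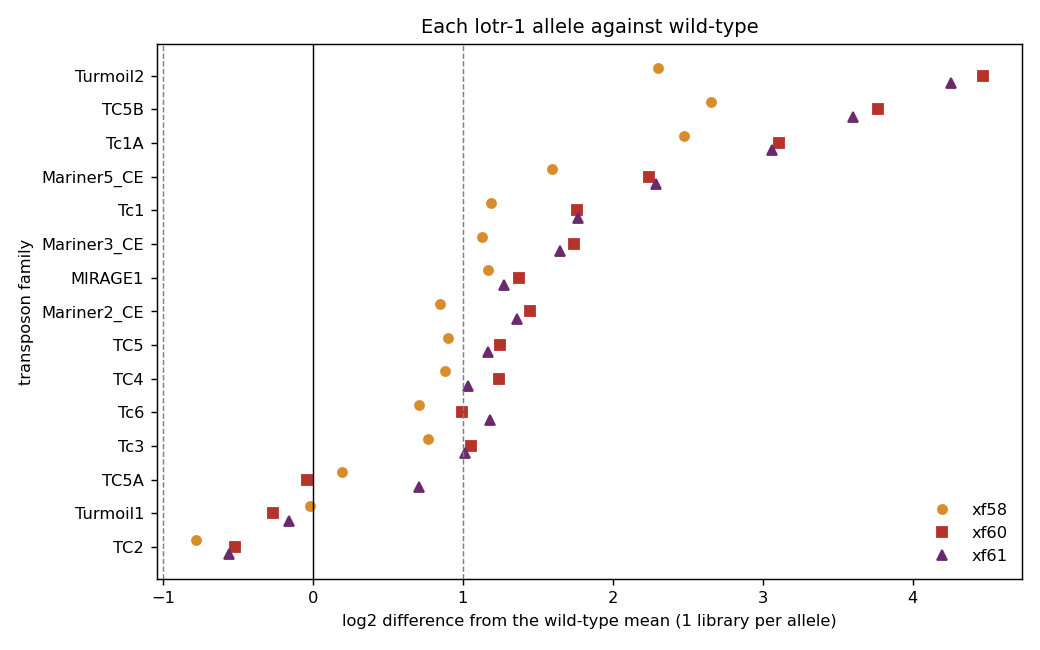
Log2 difference of each lotr-1 allele from the mean of the 3 wild-type libraries for the 15 tested families with TMM factors, 1 library per allele, with dashed lines at a 2-fold change. xf60 and xf61 lie close together at most families, and xf58 lies nearest to 0 at 13 of the 15, or at 10 with total counts (not drawn).

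The spread of the normalized counts between libraries was larger in lotr-1 than in wild-type at each of the 15 families. On total-scaled counts, an alternative chosen after seeing the data, it was larger at 13 and smaller at TC5 and Tc3, with a median coefficient of variation of 10.8% in lotr-1 and 3.24% in wild-type. That of the normalized counts had a median of 20.9% over the families in lotr-1 (6.96% to 59.7%) and of 4.24% in wild-type (0.736% to 17.0%). For the families with enough counts in a pair of libraries, which leaves out Mariner4_CE in each pair of alleles, the chi-square was divided by its degrees of freedom. It lay between 15.5 and 181.4 for the alleles and between 1.91 and 5.29 for wild-type, where sampling noise alone gives about 1. Over all loci with enough counts it lay between 9.38 and 60.3 for the alleles and between 1.51 and 1.91 for wild-type. This value rises with the counts of a locus, so it does not compare the families with all loci. The larger spread in lotr-1 was thus not particular to these families, and the share of all loci that had it was not counted. Leaving out xf58 gave 12 families called higher, where 1923 of 9647 tested loci were. Leaving out xf60 gave 9, where 1731 of 9659 loci were, and leaving out xf61 gave 10, where 1677 of 9500 were.

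Genes of the silencing pathway are targets of 22G-RNAs themselves, and the counts on them measure 22G-RNAs and not the level of their mRNA or protein. Of 45 such genes, listed by name across mutator factors, RNA-dependent RNA polymerases, Argonautes, nuclear silencing factors, germ granule proteins and piRNA factors, 45 were tested, and 1 was called higher and 6 lower, where 18.8% of all tested loci were called higher and 17.6% lower. Their median log2 fold change was 0.08. With total counts 1 was called higher and 20 lower, where 8.68% and 44.6% of all tested loci were, and the median was −0.83. The 22G-RNAs on parn-1, which encodes the nuclease that trims piRNA 3′ ends, were higher, with 8089.8 ± 2045 normalized counts in lotr-1 and 1997 ± 57.4 in wild-type (SD, n = 3 each; log2 fold change 2.02, edgeR adjusted p = 2.5e-04). Of the 10 mutator genes 0 were called higher and 4 lower, where 17.6% of all tested loci were lower. The median log2 fold change of the 10 was −0.03. With total counts the same 4 were called lower, where 44.6% of all tested loci were. The 4 were mut-2, smut-1, rde-8 and nyn-2, with log2 fold changes of −1.50, −2.28, −2.02 and −1.12 (edgeR adjusted p = 0.00913, 0.00381, 0.00219 and 0.00566). mut-2 encodes a nucleotidyltransferase, smut-1 a helicase and rde-8 an endonuclease. They were also lower on nrde-1, a nuclear silencing factor, at −1.46 (edgeR adjusted p = 4.5e-04). Of the Argonaute genes 0 of 9 were called and of the polymerase genes 0 of 5, where 36.4% of all tested loci were called in either direction. With total counts 3 of the 9 and 4 of the 5 were called lower.

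The remaining gene of that list is lotr-1 itself, with 88, 20 and 47 raw counts in xf58, xf60 and xf61, against 245, 293 and 275 in wild-type (log2 fold change −1.48, edgeR adjusted p = 0.0184). Part of its sequence is deleted in the mutants, so reads from that part cannot be counted there. Genes of the major sperm protein family (msp) held 0.00748% ± 0.00134 of the counts in lotr-1 and 0.00371% ± 0.000809 in wild-type (SD, n = 3 each). The range was 0.00609% to 0.00877% in lotr-1 against 0.00285% to 0.00446% in wild-type. These counts are small RNAs antisense to msp genes and not msp mRNA. Whether the groups differed in germline stage was not tested. Of 31 msp genes 11 passed the filter, 9 of them were called higher and 0 lower, where 18.8% of all tested loci were called higher, or 8 and 0 with total counts, where 8.68% were. Their part in the changes of the transposon families was not tested.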

How the data were processed

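For the deposited tables, the authors removed adapters (cutadapt 2.4), used Bowtie 1.2.2 for alignment to WBcel235 and counted antisense reads of 22 bases that start with G with featureCounts 1.6.2, on genes (Ensembl release 96) and RepeatMasker transposon families. A read with more than 1 best location was kept at a randomly drawn one. The deposited values are raw counts per gene or family, 1 table per library. Depth was 3706296 to 4520488 counts per library, and intervals cover counting error only.

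Counts were compared with edgeR 4.0.16 in R 4.3.3 (TMM, filterByExpr, quasi-likelihood test, 3 lotr-1 against 3 wild-type libraries). It was also run on simulated data with the same spread in both groups. These groups differ in spread, so the simulation does not show how the test does on them. Alternatives were DESeq2 1.42.0, other scalings, filters and cutoffs, a replicate block by title number, and fits without each library in turn. Families with a mean of at least 100 counts were named with every value, as were fbxa-192, lotr-1 and called genes of the silencing list. TC5A, Mariner4_CE, CELETC2, NTC2A, MARINCE1 and MAR_CE were singled out after their values were seen. The families and lists were chosen with earlier results of these data known. Gene names came from Ensembl release 115, in which 22014 of 22185 gene IDs matched.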

Additional observations from a re-analysis of the deposited data

How the results depend on the processing

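Under DESeq2 size factors, TMM factors from genes alone, the DESeq2 Wald test, a mean of at least 10 counts or an adjusted p under 0.05, between 10 and 11 families were called higher and 0 lower. In these settings 1680 to 1773 of 9127 to 9285 tested loci were called higher. With total counts 4 families were called higher and 2 lower, and their median log2 fold change over all 15 was 0.32. With TMM factors from transposon families alone these values were 3, 2 and 0.11. The medians of xf58, xf60 and xf61 were 0.21, 0.32 and 0.32 with total counts. Without the fold-change cutoff, 12 were higher and 1 lower. The log2 fold change of TC5A reversed to −0.57 with total counts and to −0.80 with factors from transposon families alone, which also reversed TC4 (−0.061), TC5 (−0.0093), Tc3 (−0.17) and Tc6 (−0.14). The reversals follow the shift of all loci, whose median was −0.88 with total counts and −1.10 with transposon factors. Against a 2-fold change, edgeR called 7 families higher, where 1155 of 9285 tested loci were. Without a count filter it called 8 higher, where 2205 of 18346 loci were. TC5B, Tc1A and Turmoil2 were called in each of these settings. Depth limits Mariner4_CE, with at most 8 counts in a library, and the precision of TC5A. Leaving out each library gave 9 to 12 families higher and 0 lower, with medians of 1.12 to 1.32. In these fits 1677 to 1923 of 9480 to 9659 tested loci were called higher. Shares of all counts were then 3.19% to 3.32% in lotr-1 and 2.65% to 2.70% in wild-type, and shares of transposon counts 23.4% to 25.02% and 25.7% to 26.0%. Without TC4 the shares were 2.55% and 2.05% of all counts and 20.3% and 21.1% of transposon counts. The replicate number is shared in the titles only (correlation of deviations −0.03 to 0.03 for equal numbers). With it as a replicate block 10 families were called higher and 0 lower, where 1693 and 1723 of 9285 tested loci were.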
